A study of Homo sapiens with 6 samples.

Results

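The mitochondrial messenger RNA segment examined here runs from MT-ND1 to MT-ND4, positions 3307 to 12137 of the human mitochondrial chromosome (build GRCh38). It was defined by position alone, as the bases of the 10 protein-coding genes MT-ND1, MT-ND2, MT-CO1, MT-CO2, MT-ATP8, MT-ATP6, MT-CO3, MT-ND3, MT-ND4L and MT-ND4, with the transfer RNA (tRNA) genes left out. These genes cover 7863 of the 16569 bases of the chromosome and make up 10 of its 13 messenger RNA genes. The other messenger RNA genes, MT-ND5, MT-ND6 and MT-CYB, lie downstream of the segment and were used for comparison only.

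Human mitochondrial DNA is transcribed into long precursors that cover many genes, and most of the messenger RNAs lie between tRNA genes. Release of the tRNAs from the precursor also releases the messenger RNAs, which then receive a poly(A) tail, a pattern known as tRNA punctuation. MT-ATP8 with MT-ATP6, and MT-ND4L with MT-ND4, overlap and are known as bicistronic messenger RNAs. The products of the segment are membrane subunits of respiratory complex I (the ND genes), of cytochrome c oxidase or complex IV (the CO genes) and of ATP synthase or complex V (the ATP genes).

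Poly(A)-selected RNA was sequenced from HEK-293T, a human embryonic kidney line carrying the SV40 large T antigen. The 3 wild-type (WT) libraries came from cells given a non-targeting guide RNA with Cas9. The 3 libraries labelled knockout (KO) came from cells given a guide RNA against C17orf80, which encodes a protein of mitochondrial nucleoids. Both groups grew in DMEM with 10% serum and were selected with puromycin, and the cells were monoclonal per the labels. No source used here states how many clones there were, so clone differences and the guide's effect cannot be told apart. Separate cultures are not stated either, so p-values reflect the spread of these 6 libraries alone, possibly a technical one.

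Each library gave 14982340 to 16278091 gene counts and a coverage value at every mitochondrial base, scaled to library depth before deposit. C17orf80 RNA, the targeted transcript, stood at 25.8, 26.8 and 29.2 CPM (gene counts scaled to library size) in WT replicates 1 to 3 and at 56.4, 42.4 and 42.0 in KO replicates 1 to 3 (log2 fold change 0.78 ± 0.17 SE, edgeR adjusted p = 0.0232, and 0.64 without KO replicate 1). The transcript was thus higher, not lower, under the knockout label, and the directions below are those of the labels. KO replicate 1 stood apart: its coverage profile over the 7863 bases correlated with the other libraries at r = 0.887 to 0.901 on a log2 scale, against 0.959 to 0.993 among the other 5 libraries. Its library scaling factor (TMM) was 0.851 against 1.03 to 1.04 elsewhere, and 15.9% of its counted reads fell in no annotated feature, against 8.75% to 10.8%. Values without it are given beside most group differences below. Of the HEK-293T markers, VIM, KRT8, KRT18, PAX2 and NEFM were detected in all 6 libraries, LHX1 stayed at or below 0.653 CPM, and INA was at 0 counts in WT and at 23.9 to 33.9 CPM under the knockout label. Of 5 markers of other cells, PTPRC and CD3E were at 0 counts, ALB and PECAM1 at or below 0.245 CPM, and COL1A1 was lower under the knockout label. The summed level of these 5, nearly all of it COL1A1, was 40.9 to 46.9 CPM in WT and 18.3 to 29.2 CPM in KO. The part of that level in the results was not tested.

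In reference order, the segment opens with MT-ND1 at MT:3307-4262 and MT-ND2 at MT:4470-5511, separated by 207 bases with 3 tRNA genes. A gap of 392 bases with 5 tRNA genes leads to MT-CO1 at MT:5904-7445, and 140 bases with 2 tRNA genes lead to MT-CO2 at MT:7586-8269. After 96 bases with 1 tRNA gene comes MT-ATP8 at MT:8366-8572, whose last 46 bases are also the first 46 of MT-ATP6 at MT:8527-9207. MT-ATP6 and MT-CO3 (MT:9207-9990) share 1 base and have no tRNA between them. Single tRNA genes separate MT-CO3 from MT-ND3 (MT:10059-10404, gap of 68 bases) and MT-ND3 from MT-ND4L (MT:10470-10766, gap of 65 bases). MT-ND4L shares its last 7 bases with MT-ND4 at MT:10760-12137. The segment thus holds 6 separate and 3 overlapping neighbour pairs.

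Coverage across the segment changed in steps at the gene borders. The segment held 75.7%, 74.8% and 73.6% of all mitochondrial coverage in WT replicates 1 to 3, 71.7% in KO replicate 1, and 80.3% and 79.5% in KO replicates 2 and 3. Mean coverage over its 7863 bases was 760, 787 and 802 in WT, and 1525, 827 and 935 in KO. All 3 KO libraries were above all WT libraries, and KO replicate 1 was set far above the rest.

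**Figure D1:**
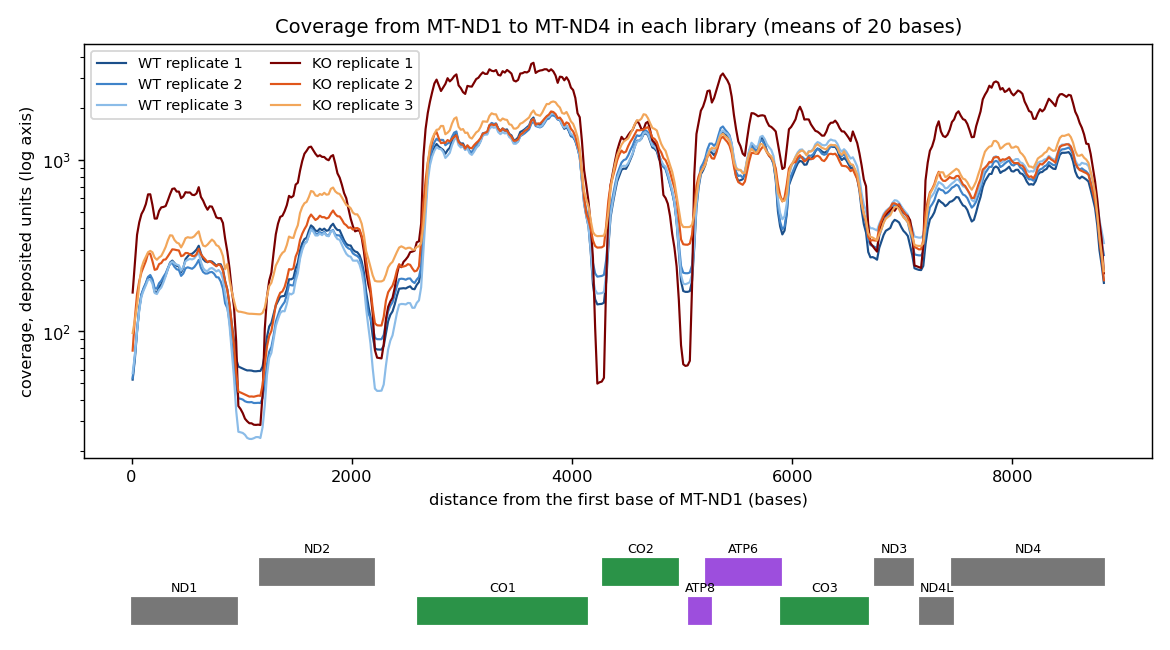
Coverage (log scale, deposited units) against distance from the first base of MT-ND1, as means of 20 bases, for each of the 6 libraries, with gene positions as bars coloured by complex. WT libraries follow one another closely over most genes but lie further apart between some, with 59.9, 39.2 and 24.6 between MT-ND1 and MT-ND2. KO replicate 1 lies above them over most genes but drops to or below them between MT-CO1 and MT-CO2 and between MT-CO2 and MT-ATP8.

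Per base, the 10 genes of the WT libraries spanned a 6.54-fold range. MT-CO1, the catalytic subunit of complex IV, had the highest coverage at 1311 ± 20.4 (mean ± SD, n = 3), followed by MT-ATP6, the proton channel subunit of ATP synthase, at 1102 ± 30.7. MT-CO3 followed at 955 ± 63.2, MT-CO2 at 924 ± 31.0, MT-ND4 at 833 ± 69.3 and MT-ATP8 at 715 ± 39.5. The lowest levels were those of 4 complex I genes, MT-ND4L at 551 ± 72.1, MT-ND3 at 438 ± 63.1, MT-ND2 at 247 ± 16.6 and MT-ND1 at 201 ± 10.2. Neighbours in this order had overlapping WT ranges only for MT-CO3 with MT-CO2, MT-CO2 with MT-ND4, and MT-ND4L with MT-ND3. In KO replicates 2 and 3 MT-CO2 stood second, ahead of MT-ATP6 and MT-CO3, and in KO replicate 3 MT-ND4 (1021) was also ahead of MT-CO3 (991). The other genes kept their places in KO replicates 2 and 3. The order changed more in KO replicate 1, where MT-ND4 (1958) was ahead of MT-ATP6 (1939) and MT-ATP8 (1556) ahead of MT-CO3 (1445). There MT-CO2 (1042) was below MT-ND4L (1206), and MT-ND3 (465) was the lowest gene, below MT-ND1 (504). These are coverage values per base and need no correction for gene length.

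The first comparison asked whether the level of each messenger RNA differed between the libraries labelled knockout and WT. None of the 10 genes passed the test in coverage: 6 had all KO libraries above all WT libraries, 4 overlapped, and 0 were lower without overlap. The largest differences were in MT-ND2 and MT-ND1, the genes nearest the start of the segment, and the smallest in MT-ND3, MT-CO3 and MT-ATP6. Over the 38 regions of the chromosome tested (37 genes and the control region), 42.1% were higher without overlap and 0% lower, and limma called 0%. At an unadjusted p below 0.05, 1 of the 10 genes was higher (MT-ND2) and 0 were lower. The median log2 difference of the 10 genes was 0.45, beside 0.48 over all 38 regions. Without KO replicate 1 the medians were 0.17 and 0.29, and limma called 1 gene of the segment higher, MT-CO2, and 0 lower, beside 10.5% of the 38 regions (7.89% higher, 2.63% lower). Taken as a share of each library's own mitochondrial coverage, which moves the 10 genes by a median of -0.39, the differences were -0.12 in MT-CO2, -0.16 in MT-ATP6, -0.19 in MT-CO3 and -0.30 in MT-ND3, and still above 0 in the other 6 genes. KO replicate 1 was the highest of the 6 libraries in 8 of the 10 genes, the exceptions being MT-CO2 and MT-ND3.

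Among the complex I genes, MT-ND1, a membrane-arm subunit next to the quinone site, had a mean coverage of 212, 192 and 198 in WT replicates 1 to 3 and 504, 239 and 287 in KO replicates 1 to 3. MT-ND2, one of the proton-pumping subunits, had 265, 246 and 232 in WT and 625, 318 and 441 in KO. In both genes the lowest KO library lay above the highest WT library, with KO replicate 1 the highest. The log2 difference was 0.70 ± 0.33 (SE) for MT-ND1 and 0.84 ± 0.29 for MT-ND2, each with limma adjusted p = 0.301. With KO replicate 1 left out they were 0.38 and 0.60 (limma adjusted p = 0.106 and 0.0704). MT-ND2 was thus 1.29 and 1.78 times the WT mean in KO replicates 2 and 3 and 2.53 times in KO replicate 1.

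The small subunit gene MT-ND3 had the most scattered WT levels of the 10 genes, with 370.5, 447 and 495.5 in WT beside 465, 478 and 445 in KO. Its groups overlapped fully (log2 difference 0.09 ± 0.22, limma adjusted p = 0.879, and 0.085 without KO replicate 1). MT-ND4L, another small membrane subunit, had 475, 559.6 and 618 in WT and 1206, 674 and 681 in KO. MT-ND4, a further proton-pumping subunit, had 763, 834 and 901 in WT and 1958, 878 and 1021 in KO. The KO libraries were higher without overlap in MT-ND4L, whereas in MT-ND4 KO replicate 2 fell inside the WT range. Their log2 differences were 0.58 ± 0.27 and 0.54 ± 0.30 (limma adjusted p = 0.301 for each), and 0.31 and 0.19 without KO replicate 1 (limma adjusted p = 0.106 and 0.198).

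Of the complex IV genes, MT-CO1 had a mean coverage of 1322, 1324 and 1288 in WT and 2777, 1369 and 1562 in KO. The KO libraries were higher without overlap, although KO replicate 2 was only 1.04 times the WT mean (log2 difference 0.47 ± 0.28, limma adjusted p = 0.301, and 0.16 without KO replicate 1, limma adjusted p = 0.106). MT-CO2, which takes electrons from cytochrome c, had 898, 958 and 917 in WT and 1042, 1083 and 1213 in KO. It was a gene in which KO replicate 1 did not stand out: its value was the lowest of the KO libraries and 1.13 times the WT mean. The log2 difference of MT-CO2 was 0.26 ± 0.20 (limma adjusted p = 0.345) with all libraries and 0.31 without KO replicate 1 (limma adjusted p = 0.0492). MT-CO3, the remaining core subunit, had 906, 933 and 1026 in WT and 1445, 908 and 991 in KO, so that KO replicates 2 and 3 lay within the WT range. Its log2 difference of 0.19 ± 0.24 (limma adjusted p = 0.606) became -0.0076 without KO replicate 1.

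Of the complex V genes, MT-ATP8, a small subunit, had 681, 758 and 706 in WT and 1556, 763 and 764 in KO. The KO libraries were above the WT libraries by a narrow margin for replicates 2 and 3 (log2 difference 0.44 ± 0.29, limma adjusted p = 0.326). KO replicate 1 carried most of that difference, which was 0.10 without it (limma adjusted p = 0.320). MT-ATP6 had 1069, 1109 and 1129 in WT and 1939, 1025 and 1081 in KO. Only KO replicate 1 exceeded the WT range, and KO replicate 2 was below it. The log2 difference of 0.23 ± 0.27 (limma adjusted p = 0.606) turned to -0.07 without KO replicate 1 (limma adjusted p = 0.336), which made MT-ATP6 and MT-CO3 the 2 genes whose direction depended on that library.

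**Figure D2:**
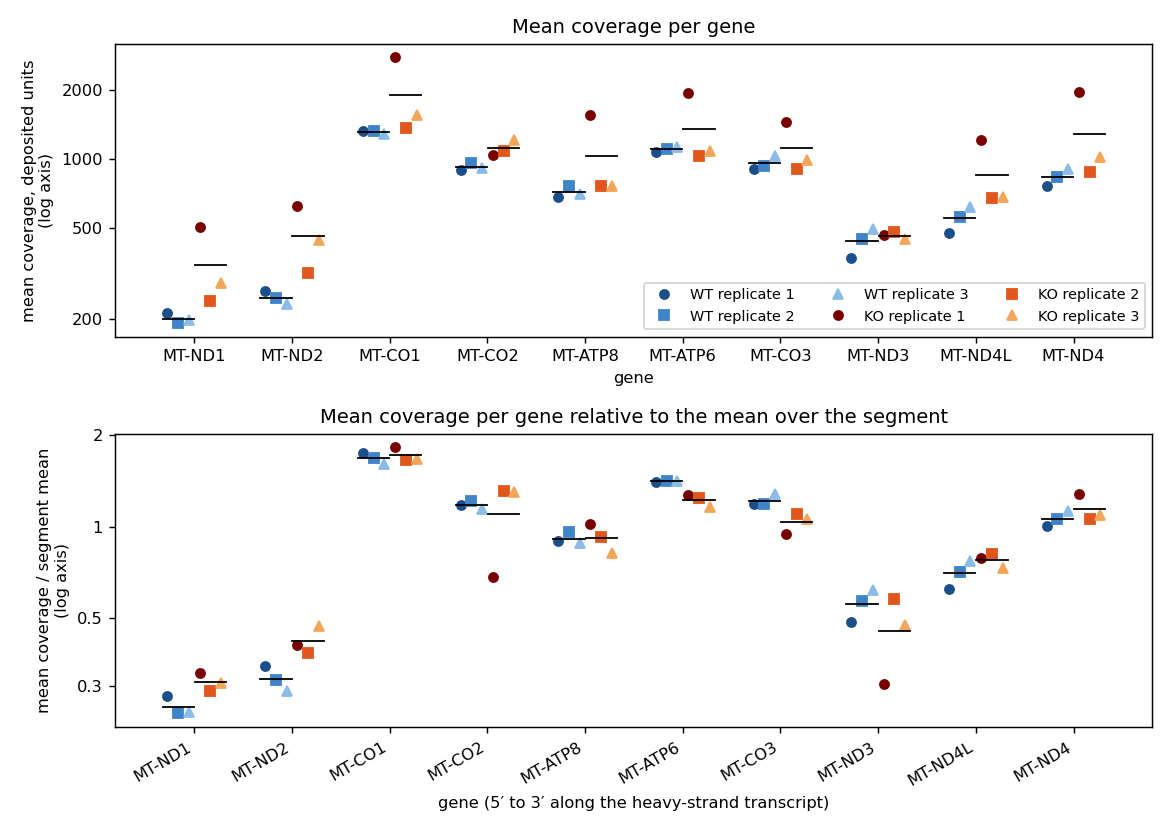
Mean coverage of each of the 10 genes (log scale) in each library, with WT and KO side by side and a black line at each group mean. In 6 genes every KO point is above every WT point, and KO replicate 1 is the highest point of the 6 in all genes but MT-CO2 and MT-ND3.

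The next comparison asked whether single genes moved differently from the segment, by dividing each library by its own mean over the 7863 bases. On this relative scale the early genes were higher and the MT-ATP6 to MT-CO3 stretch was lower under the knockout label. MT-ND1 and MT-ND2 were higher without overlap, MT-ATP6 and MT-CO3 were lower without overlap, and 6 genes overlapped. Of the 38 regions, 15.8% were higher and 13.2% lower without overlap, 28.9% in either direction. limma called 0 of the 10 genes and 0 of the 38 regions, with 0 genes higher and 2 lower (MT-ATP6 and MT-CO3) at an unadjusted p below 0.05. With KO replicate 1 left out it called 1 of the 10 genes lower, MT-ATP6, and 0 higher, beside 21.1% of the 38 regions (5.26% higher, 15.8% lower). The division makes a gain in 1 gene lower the others by construction, so the 10 values are not independent.

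Relative to the segment mean, MT-ATP6 stood at 1.41 in each WT library and at 1.27, 1.24 and 1.16 in KO replicates 1 to 3. All KO libraries were lower by far more than the WT spread, and the value did not rest on KO replicate 1. The log2 difference was -0.20 ± 0.06 (limma unadjusted p = 0.00922, adjusted p = 0.175), and -0.23 without KO replicate 1 (limma adjusted p = 0.0226). MT-CO3 stood at 1.19, 1.19 and 1.28 in WT and 0.947, 1.10 and 1.06 in KO, with a log2 difference of -0.24 ± 0.08 (limma unadjusted p = 0.0204, adjusted p = 0.223). The MT-CO3 difference was -0.17 without KO replicate 1 (limma adjusted p = 0.0585). The 2 genes share 1 base and have no tRNA gene between them, and they differed in the same direction.

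MT-ND2 stood at 0.348, 0.312 and 0.289 of the segment mean in WT and at 0.410, 0.385 and 0.472 in KO. Its log2 difference was 0.40 ± 0.19 (limma adjusted p = 0.435), and 0.42 without KO replicate 1 (limma adjusted p = 0.0867). MT-ND1 stood at 0.279, 0.244 and 0.247 in WT and at 0.330, 0.289 and 0.307 in KO, a log2 difference of 0.26 ± 0.23 (limma adjusted p = 0.542) and of 0.21 without KO replicate 1. The relative level of MT-CO2 split the KO libraries, with 1.18, 1.22 and 1.14 in WT but 0.683, 1.31 and 1.298 in KO. KO replicates 2 and 3 were above WT and KO replicate 1 was far below, so its log2 difference of -0.16 turned to 0.14 without that library. MT-ND3 had the same kind of low value in KO replicate 1, 0.305 against 0.488 to 0.618 in WT and 0.578 and 0.476 in KO replicates 2 and 3, and its log2 difference was -0.34 with and -0.08 without that library. MT-CO1, MT-ATP8, MT-ND4L and MT-ND4 had overlapping groups, with log2 differences of 0.03, 0.01, 0.15 and 0.10, and of -0.01, -0.07, 0.14 and 0.02 without KO replicate 1.

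Windows of 100 bases located the differences within genes. Of the 77 windows centred in the segment, 38 (49.4%) had all KO libraries above all WT libraries and 0 were below, beside 41.6% and 0% of the 166 windows of the whole chromosome. limma called 0 of the 166. At an unadjusted p below 0.05, 5 of the 77 were higher and 0 lower, all 5 in MT-ND2. That is beside 15 higher and 0 lower of all 166, of which 10 lay among the 89 windows outside the segment. Windows higher without overlap were 5 of 10 in MT-ND1, 9 of 10 in MT-ND2, 9 of 15 in MT-CO1, 5 of 7 in MT-CO2, 1 of 2 in MT-ATP8, 0 of 6 in MT-ATP6, 1 of 8 in MT-CO3, 0 of 3 in MT-ND3, 3 of 3 in MT-ND4L and 5 of 13 in MT-ND4. Reads span more than 1 window, so these counts are not of independent values. When KO replicate 1 was left out, limma called 23 of the 77 higher and 0 lower, beside 32.5% higher and 13.9% lower of all 166. Those 23 lay in MT-ND2 (9), MT-CO2 (6), MT-ND1 (5), MT-CO1 (2) and MT-CO3 (1).

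Several of the windows with the largest difference in their gene lay at its start. The window MT:3301-3400, which holds the first bases of MT-ND1, had a coverage of 97.5, 98.5 and 98.0 in WT and 320.4, 147 and 147 in KO. WT libraries were within a few percent of each other there, and KO replicates 2 and 3 were equally high (log2 difference 0.95 ± 0.47, limma adjusted p = 0.289, and 0.58 without KO replicate 1, limma adjusted p = 0.006). The window MT:5901-6000 at the start of MT-CO1 had 388, 399 and 327 in WT and 937, 524 and 471 in KO (log2 difference 0.73, limma adjusted p = 0.289, and 0.42 without KO replicate 1). The window MT:7601-7700 at the start of MT-CO2 had 402, 464 and 421 in WT and 586, 641 and 627 in KO, with a log2 difference of 0.53 (limma adjusted p = 0.308) and of 0.57 without KO replicate 1 (limma adjusted p = 0.011). All KO libraries were above all WT libraries in both, and in MT-CO2 the 3 KO values lay close together. These differences were not confined to the gene starts. Just before MT-ND1, MT:3201-3300 had a log2 difference of 1.09 (0.69 without KO replicate 1). Before MT-CO1, MT:5801-5900 had 0.68 (0.64 without it). Before MT-CO2, MT:7501-7600 had 0.20 with overlapping groups (0.93 without it). Before MT-CO3, MT:9101-9200 had 0.33 with overlapping groups (0.096 without it).

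The first window of MT-CO3, MT:9201-9300, had 522, 543 and 612 in WT and 1171, 723 and 689 in KO, although the gene as a whole overlapped between groups. It was the only window of MT-CO3 without overlap (log2 difference 0.58, limma adjusted p = 0.294, and 0.34 without KO replicate 1). In MT-ND2 the largest difference was at MT:4701-4800, with 198, 183 and 164 in WT and 607, 228 and 347 in KO (log2 difference 1.0, limma adjusted p = 0.289, and 0.63 without KO replicate 1). For MT-ATP8 (MT:8401-8500), MT-ND4L (MT:10701-10800) and MT-ND4 (MT:11001-11100) the largest log2 differences were 0.51, 0.63 and 0.71, and 0.16, 0.31 and 0.29 without KO replicate 1.

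**Figure D3:**
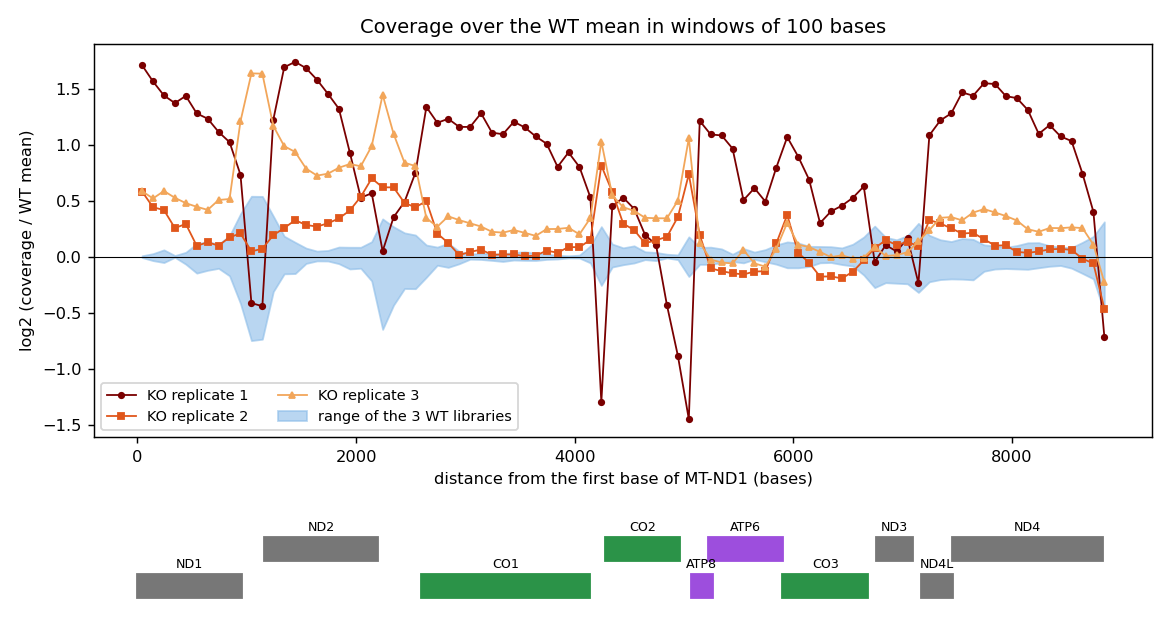
Log2 of coverage over the WT mean for each KO library in windows of 100 bases, against distance from the first base of MT-ND1, with the range of the 3 WT libraries shaded and genes as bars below. KO replicate 1 is highest over most genes and drops below WT on either side of MT-CO2, and KO replicates 2 and 3 lie above the WT range through most of MT-ND2 and MT-CO2 but not through MT-ATP6.

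Ratios within a library compare neighbouring stretches and do not depend on its depth. For each of the 9 neighbour pairs, the step is the first 50 bases of the downstream gene over the last 50 of the upstream gene. In overlapping pairs the shared bases were left out of both edges, each being the nearest 50 bases that only 1 of the pair covers. The gap ratio is the coverage between the genes, or of their shared bases, over the mean of both edges. The end ratio of each of the 10 genes is its first 100 bases over its last 100. Of these 28 ratios, 7 were higher in all KO libraries than in all WT libraries and 0 were lower, which is 25% without overlap. Each of the 7 had a two-sided exact permutation p = 0.1, the smallest that 3 against 3 libraries allow, and an adjusted p = 0.400 over the 28. No ratio could therefore pass the threshold. With KO replicate 1 left out, 12 were higher without overlap and 2 lower (the step from MT-ND2 to MT-CO1 and the shared bases of MT-ATP8 and MT-ATP6). None of them passed the exact permutation test (adjusted p of at least 0.233). Fewer libraries separate without overlap more easily by construction, so these counts cannot be set directly against those of all 6 libraries.

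End ratios made up 4 of the 7, meaning relatively more coverage at the start of a gene than at its end. In MT-CO1 the ratio was 0.507, 0.506 and 0.427 in WT and 0.749, 0.639 and 0.531 in KO, and in MT-CO2 it was 0.530, 0.632 and 0.549 against 1.19, 0.743 and 0.663. Both genes thus had lower starts than ends in WT, and MT-CO2 in KO replicate 1 was the exception with a higher start. In MT-CO3 the ends were near balance in WT at 1.02, 0.983 and 0.967, but the start was higher in KO at 1.31, 1.303 and 1.22. MT-ND4 had a higher start than end in all libraries, at 1.58, 1.53 and 1.44 in WT and 3.44, 1.91 and 1.92 in KO. The log2 differences were 0.40 for MT-CO1, 0.56 for MT-CO2, 0.36 for MT-CO3 and 0.62 for MT-ND4. They were 0.28, 0.30, 0.35 and 0.34 without KO replicate 1, which thus made up much of the MT-CO2 and MT-ND4 differences. Of these, MT-CO3 had the tightest values relative to its difference, 0.991 ± 0.029 in WT and 1.28 ± 0.05 in KO (SD, n = 3 each).

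The remaining 3 were at junctions. From MT-CO2 to MT-ATP8, across 1 tRNA gene, the step was 0.391, 0.478 and 0.422 in WT and 0.731, 0.568 and 0.605 in KO (log2 difference 0.56, and 0.45 without KO replicate 1). The base shared by MT-ATP6 and MT-CO3 had 0.848, 0.860 and 0.870 of the mean of its edges in WT and 0.888, 0.888 and 0.947 in KO, a log2 difference of 0.08 (0.09 without KO replicate 1). The step from MT-ND3 to MT-ND4L was 0.809, 0.812 and 0.869 in WT and 0.908, 0.883 and 0.872 in KO (log2 difference 0.10, and 0.08 without KO replicate 1). In the last, the lowest KO value exceeded the highest WT value by very little, and the direction reversed to -0.16 with edges of 25 bases and to -0.15 with median coverage.

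Of the overlapping pairs, MT-ND4L and MT-ND4 had the most even coverage across their junction. The 7 bases shared by MT-ND4L and MT-ND4 had 0.976, 0.999 and 0.989 of the mean of their edges in WT and 0.995, 0.977 and 0.999 in KO (log2 difference 0.003, exact permutation p = 0.9). The step at that junction was 1.07, 1.07 and 1.08 in WT and 1.21, 1.02 and 1.07 in KO (exact permutation p = 0.9). The groups overlapped in both measures, and coverage was close to even across the junction in all but KO replicate 1.

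The 46 bases shared by MT-ATP8 and MT-ATP6 had 1.11, 1.10 and 1.10 of the mean of their edges in WT and 1.12, 1.09 and 1.06 in KO (exact permutation p = 0.7). The step over that overlap was 1.22, 1.26 and 1.23 in WT and 1.10, 1.14 and 1.29 in KO (exact permutation p = 0.4). From MT-ATP6 into MT-CO3 the step was 0.782, 0.780 and 0.807 in WT and 0.781, 0.858 and 0.898 in KO (exact permutation p = 0.3). KO replicates 2 and 3 were above WT at this last step, while KO replicate 1 lay at its lower edge.

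Between separate genes, coverage was below the mean of both flanking ends in every library, though not always below each end. From MT-ND2 to MT-CO1 it was above the MT-ND2 end in all 6 libraries (140 against 107 in WT replicate 1). Across the 6 separate junctions the gap ratio ranged from 0.558 to 0.903 in WT, from 0.647 to 0.819 in KO replicate 2 and from 0.766 to 0.950 in KO replicate 3. KO replicate 1 had 0.338 to 0.646 and was the lowest of the 6 libraries at all 6 junctions. At 2 junctions KO replicates 2 and 3 were both above all WT libraries, and at 0 both were below.

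Those 2 were the gaps on either side of MT-CO2. From MT-CO1 to MT-CO2 the gap ratio was 0.574, 0.647 and 0.598 in WT, 0.420 in KO replicate 1, and 0.705 and 0.766 in KO replicates 2 and 3. From MT-CO2 to MT-ATP8 it was 0.558, 0.638 and 0.585 in WT, 0.343 in KO replicate 1, and 0.687 and 0.767 in KO replicates 2 and 3. In coverage itself, the gap before MT-ATP8 had 196, 241 and 214 in WT, 82.5 in KO replicate 1, and 347 and 428 in KO replicates 2 and 3. KO replicate 1 thus differed from WT in the opposite direction to the other 2 KO libraries there, and it is the single junction at which its mean gap level itself was the lowest of the 6. The gap before MT-CO2 had 213, 273 and 228 in WT and 220.3, 347 and 402 in KO. Coverage was uneven across that gap, from 49.1 to 653 in KO replicate 1. Its lowest value was 144, 208 and 166 in WT replicates 1 to 3, and 308 and 360 in KO replicates 2 and 3. By lowest value, KO replicate 1 was thus below all WT libraries there too.

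The other gaps had coverage of 24.6 to 59.9 in WT between MT-ND1 and MT-ND2, 105 to 157 between MT-ND2 and MT-CO1, 271 to 400 between MT-CO3 and MT-ND3, and 231 to 355 between MT-ND3 and MT-ND4L. In KO replicates 1 to 3 they had 31.3, 42.7 and 128, then 191, 191 and 263, then 326, 341 and 355, and then 240, 306 and 317. The gap between MT-ND2 and MT-CO1 was the only one of these 4 in which all KO libraries had more coverage than all WT libraries. Across the 28 ratios, those not given singly had log2 differences of -0.17 to 0.18 for steps, -0.26 to 0.01 for gaps and -0.16 to 0.28 for gene ends, each with adjusted p of at least 0.933 by the exact permutation test.

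**Figure D4:**
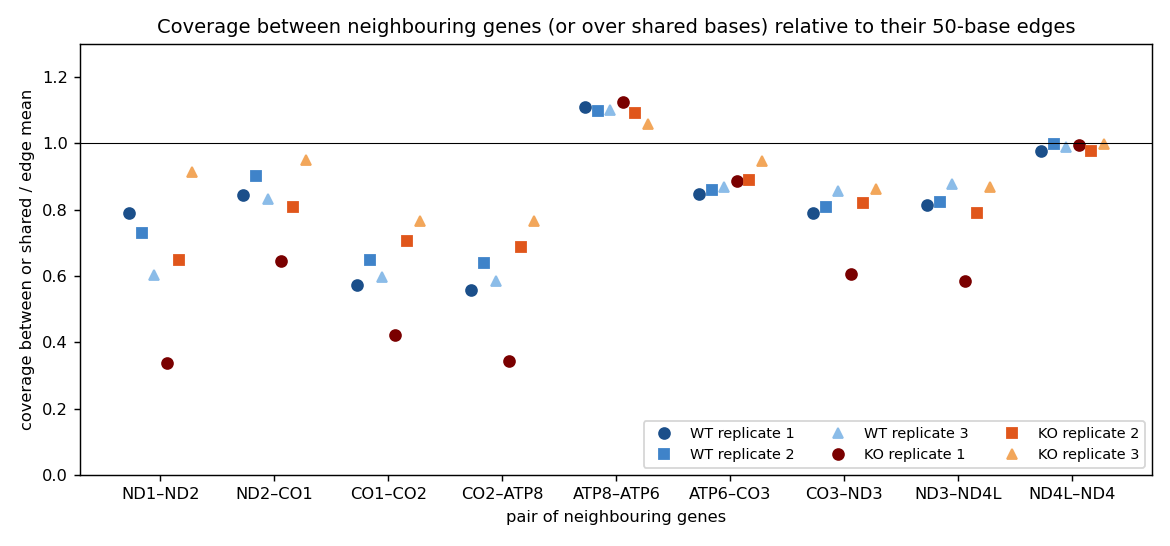
Coverage between neighbouring genes, or over their shared bases, divided by the mean of the 50 bases on each side (no unit), for the 9 neighbour pairs in each library, with a line at 1. KO replicate 1 is lowest at the 6 separate pairs, KO replicates 2 and 3 lie above all WT libraries on both sides of MT-CO2, and at the 3 overlapping pairs KO replicate 1 lies with the other libraries.

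Gene counts gave a second measure of the same libraries. By edgeR none of the 10 genes passed at an adjusted p of 0.05, beside 15.1% of the 17452 genes tested (8.64% higher, 6.5% lower). At an unadjusted p below 0.05, 3 were higher and 0 lower, and DESeq2 called 2 higher (MT-ND2 and MT-ND4) and 0 lower. With no filter on low counts edgeR called 4 higher, MT-ND1, MT-ND2, MT-ND4L and MT-ND4. The 15.1% is from the main edgeR fit. Shares of all genes called by DESeq2 or without the filter are not given, so those counts have no background beside them. The genes summed to 3.58%, 3.55% and 3.59% of gene counts in WT, 8.41% in KO replicate 1, and 3.70% and 4.07% in KO replicates 2 and 3. Once KO replicate 1 was left out, edgeR called 5 higher (MT-ND1, MT-ND2, MT-CO2, MT-ND4L and MT-ND4) and 2 lower (MT-ATP6 and MT-CO3), in a comparison in which 44% of 18133 genes passed (22.3% higher, 21.7% lower). The median log2 fold change of the 10 was 0.80 beside 0.0055 over all genes tested, and 0.21 beside 0.0062 without that library.

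Apart from MT-ND3, the complex I genes had the largest count differences. MT-ND4L had 105, 143 and 135 CPM in WT and 828, 244 and 150.3 in KO (log2 fold change 1.67, edgeR adjusted p = 0.0959). MT-ND2 had 1670.0, 1665 and 1719.8 CPM in WT and 6097, 2089.8 and 2406 in KO (1.07, edgeR adjusted p = 0.108). KO replicate 1 carried most of both differences, with 0.63 and 0.42 remaining without it (edgeR adjusted p = 0.000222 and 3.47e-07). MT-ATP6 had 2435, 2451 and 2572 CPM in WT and 5055, 2019.5 and 2119 in KO, so that KO replicate 1 lay far above and the other 2 below WT (0.30, edgeR adjusted p = 0.573, and -0.26 without KO replicate 1, edgeR adjusted p = 5.20e-05). In CPM, 5 of the 10 genes were higher without overlap in KO, and 5 overlapped, beside 23.5% of all tested genes that were higher without overlap.

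Gene counts were lowest relative to coverage in MT-ATP8 and MT-ND4L, short genes that overlap a neighbour. Counts per kilobase, as CPM, divided by mean coverage were 5.46 (MT-CO3) to 7.56 (MT-ND1) in WT for the 6 longest genes. MT-ATP8 had only 10, 22 and 24 counts in WT and 34, 46 and 15 in KO although its coverage was near that of its neighbours, and its ratio was 0.005 to 0.018. The ratio of MT-ND4L was 0.803 ± 0.075 in WT and 1.33 ± 0.60 in KO, and that of MT-ND3, which overlaps no other gene, was 2.83 ± 0.48 in WT (SD, n = 3 each). In all 6 libraries 9.74% to 12.5% of counted reads were marked ambiguous, and the part of such reads in these ratios was not tested. MT-ATP6, which shares bases with both of its neighbours, had 3.41 ± 0.05 in WT, below the 6 longest genes. Counts of MT-ATP8, MT-ATP6 and MT-ND4L, which share bases with a neighbour, are therefore uncertain.

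MT-ATP6 was the single gene of the 10 (10%) whose ratio of counts to coverage had no overlap between groups. It was 3.43, 3.36 and 3.44 in WT and 3.25, 2.98 and 2.97 in KO (log2 difference -0.16, exact permutation p = 0.1, the smallest this design allows, adjusted p = 0.667, and -0.20 without KO replicate 1). All 3 KO libraries were lower, KO replicate 1 by the least.

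**Figure D5:**
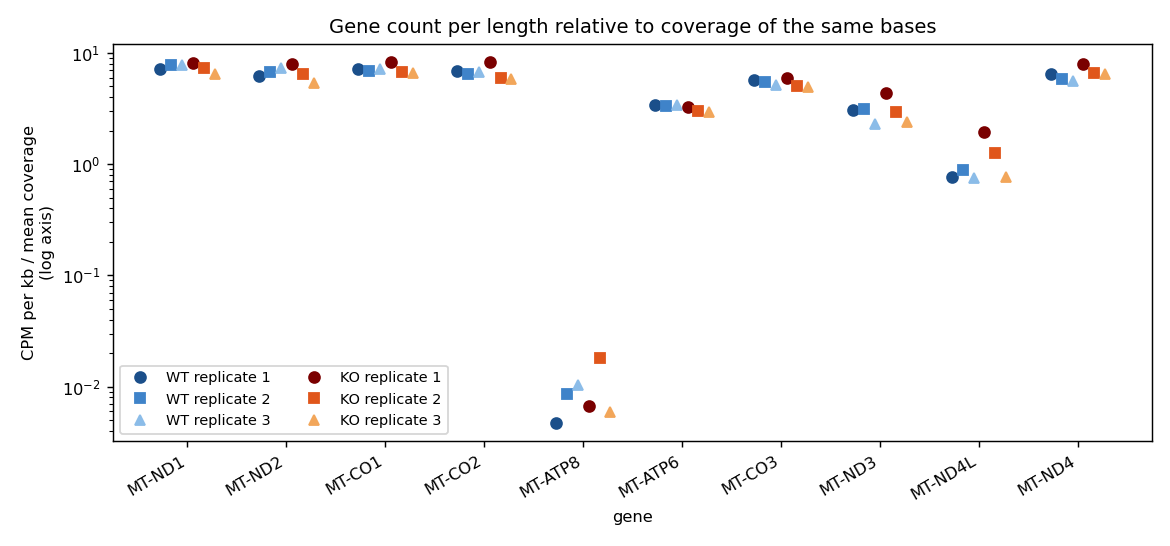
Gene count per kilobase (CPM) divided by mean coverage (log axis) for each of the 10 genes in each library. MT-ATP8 lies far below the other genes, followed by MT-ND4L, and KO replicate 1 is the highest of the MT-ND4L values.

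Sequences similar to the segment also lie in the nuclear genome, among them MTND2P28 at chr1:629640-630686, MTCO1P12 at chr1:631074-632616 and MTATP6P1 at chr1:633696-634376. Reads shared with such copies make counts of both uncertain. The 10 copies examined held 0.780, 0.973 and 0.884 counts per 100 counts of the segment in WT and 0.839, 0.936 and 0.776 in KO. Of the 10, 5 had enough counts to test and edgeR called 0, with 1 higher and 0 lower at an unadjusted p below 0.05. MTND2P28 had 66.8, 86.8 and 65.9 CPM in WT and 408, 118 and 115 in KO, and MTATP6P1 had 183, 223 and 214 in WT and 365, 179 and 167 in KO. These copies thus differed between libraries in the same direction as MT-ND2 and MT-ATP6, and KO replicate 1 was the highest in both. Their log2 fold changes were 1.55 and 0.20 with all libraries (edgeR adjusted p = 0.0777 and 0.676) and 0.68 and -0.25 without KO replicate 1, where both passed. In that fit 44% of 18133 genes passed. The other tested copies, MTCO1P12, MTCO3P12 and MTND4P12, did not pass there (0.32, 1.15 and 0.35, edgeR adjusted p = 0.118, 0.129 and 0.233).

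Among 26 nuclear genes for factors that make, process or protect mitochondrial RNA, 3 rose, 1 fell and 22 did not pass by edgeR. Of all genes tested 8.64% were called higher and 6.5% lower, so the called shares are near the background. The median log2 fold change of the 26 was 0.30, beside 0.0055 over all genes tested. In CPM, 11 of the 26 were higher without overlap and 2 lower, beside 23.5% and 24.1% of all tested genes. Those that rose were TFB2M, a transcription initiation factor (1.07, edgeR adjusted p = 0.009), MTERF1, a transcription termination factor (0.93, edgeR adjusted p = 0.018), and PDE12, a deadenylase (0.64, edgeR adjusted p = 0.040). FASTK, a mitochondrial RNA-binding protein, fell from 150, 135 and 147 CPM to 21.4, 65.6 and 60.1 (log2 fold change -1.55, edgeR adjusted p = 0.036). With any 1 WT library left out, 0 of the 26 passed in either direction, without KO replicate 3, 1 was higher and 0 lower, and without KO replicate 2, 5 were higher and 1 lower. Shares over all genes are not given for these fits, so their counts say nothing particular about the factors. When KO replicate 1 was left out, 11 were higher and 2 lower, in a fit in which 22.3% of all genes were higher and 21.7% lower.

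The messenger RNAs beyond the segment, MT-ND5, MT-ND6 and MT-CYB, had log2 fold changes of 0.94, 0.54 and -0.34, and edgeR called 0 of the 3. Without KO replicate 1 all 3 were lower, with MT-CYB at 3792, 3757 and 3733 CPM in WT and 1549 and 1664 in KO replicates 2 and 3. In the same fit 5 of the 10 genes of the segment were higher and 2 lower. Of all 18133 genes in that fit, 22.3% were higher and 21.7% lower. KO replicate 1 had more than the WT libraries in MT-CYB as well, at 5692 CPM.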

How the data were processed

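Per the labels' protocols, poly-T beads were used to select mRNA for NEBNext Ultra libraries. The submitters' processing notes name HISAT2 2.2.1, HTSeq 0.12.4, SAMtools 1.3.1 and bedtools 2.30.0 with GRCh38; no source used here gives the counting options. The deposited tables hold raw counts per gene; reads in no feature or ambiguous were left out. The deposited coverage is a signal per mitochondrial base. Below a coverage of 20, 100% of values were whole multiples of 1 step per library within 0.1 step, and the steps correspond to 1.95 to 1.96 times the counted reads, so that the authors' values were scaled to read depth before deposit. They were used as deposited.

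Coverage of 38 regions and 166 windows was tested with limma 3.58.1 with a trend on log2 (coverage + 1), which understates changes of low values, or, relative to the segment mean, with a pseudocount of 0.01. Counts were tested with edgeR 4.0.16 quasi-likelihood in R 4.3.3 (TMM, filterByExpr). All p-values were Benjamini-Hochberg adjusted at 0.05. The 28 ratios and the ratios of counts to coverage were tested by two-sided exact permutation. Members, lists, tests and named genes (the 10 genes, other mitochondrial mRNAs, nuclear copies, called RNA factors, and ratios and windows without overlap) were chosen with earlier results of these data known. Alternatives were other filters, scalings, pseudocounts, edges and windows, median coverage, DESeq2 1.42.0, a replicate block and leaving out each library in turn; scaling by the geometric mean of the genes was added after seeing the data. The edgeR and limma fits were also run on simulated data. No libraries were duplicates (smallest chi-square per degree of freedom of a pair 2.52). Once the group mean of each gene was removed, same-numbered WT and KO libraries correlated at r = -0.06 to 0.002. The labels state no pairing, and the main tests treated the libraries as unpaired. Gene positions are from RefSeq (GRCh38.p14).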

Additional observations from a re-analysis of the deposited data

How the results depend on the processing

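Leaving out KO replicate 1 moved the counts of called genes, called windows and RNA factors the most. Over the 6 fits that leave out 1 library, genes of the segment called higher ranged from 0 to 1 in deposited coverage and from 0 to 5 in counts, and called lower from 0 to 1 in relative coverage and from 0 to 2 in counts. Genes called higher and lower among all tested ranged from 401 to 4048 and from 243 to 3927, RNA factors from 0 to 11 and from 0 to 2, and windows of the segment called higher from 0 to 23. Ratios without overlap ranged from 7 to 12 higher and from 0 to 3 lower, and genes without overlap in counts against coverage from 1 to 4. The labels state no pairing of same-numbered libraries. With a replicate block edgeR called 610 genes higher and 359 lower, RNA factors 0 and 0, and 0 of the 10 genes. Without a filter on low counts 4 of the 10 were called higher, and with DESeq2 2, with no share over all genes given for either. Edges of 25 bases left 4 ratios higher without overlap, as did median coverage, and edges of 100 bases gave 1 lower. Scaling coverage by nuclear TMM sizes added a median of 0.14 to the 10 genes and changed no call. As a share of each library's mitochondrial coverage, the differences of MT-CO2, MT-ATP6, MT-CO3 and MT-ND3 reversed to -0.12, -0.16, -0.19 and -0.30. With 1 library left out, deposited coverage differences that changed sign ranged from -0.066 to 0.39 (MT-ATP6) and from -0.0076 to 0.33 (MT-CO3), negative without KO replicate 1, and from -0.026 to 0.18 (MT-ND3), negative without WT replicate 1. Relative coverage ranged from -0.010 to 0.060 (MT-CO1), negative without KO replicate 1, from -0.071 to 0.087 (MT-ATP8, near 0), negative without KO replicate 1 (-0.071), WT replicate 1 (-0.0075) or WT replicate 3 (-0.019) and with median coverage (-0.037), and from -0.32 to 0.14 (MT-CO2), positive without it. Counts ranged from -0.26 to 0.53 (MT-ATP6) and from -0.13 to 0.56 (MT-CO3), negative without KO replicate 1. The shared bases of MT-ATP8 and MT-ATP6 ranged from -0.035 to 0.0089 (0.0039 with edges of 25), the step from MT-ND4L to MT-ND4 from -0.039 to 0.087 and their shared bases from -0.0057 to 0.013. The step from MT-ND3 to MT-ND4L reversed to -0.16 (edges of 25) and -0.15 (median coverage). The cause was not tested. The exact tests cannot go below p = 0.1 with 3 against 3 libraries, so the ratios cannot pass at this sample size.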
